A study of Mus musculus with 6 samples.

Results

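The normal lens placode of the mouse was described here from 3 wild type embryos at embryonic day 9.5. They are 3 of the 6 embryos of a study that also measured 3 Pax6 knockout embryos of the same age, which are not compared here. The embryos were of a mixed FVB and 129 background, and the labels give no sex. Each array carried the prospective lens tissue of the left and right eye of 1 embryo, cut from 10 µm frozen sections by laser microdissection, and 15 ng of its RNA was amplified to cDNA before labelling. Genes were taken from the 46632 probes of an Illumina BeadArray, on which beads carrying a probe glow with the amount of matching cDNA. A probe was kept where its detection p-value was under 0.05 on all 3 arrays, which means that it glowed above nearly all negative control beads. This kept 15576 probes, and of 17711 genes with a named probe 8292 (46.8%) had at least 1 kept probe.

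The lens placode is a thickened disc of surface ectoderm over the optic vesicle, the outgrowth of the brain that becomes the retina. It later bends inward as the lens pit and closes into the lens vesicle, whose back cells become fibre cells filled with crystallins, the refractive proteins of the lens. Its formation depends on transcription factors such as Pax6, Six3 and Sox2 and on BMP and FGF signals. The placode is also known to drive its own bending through actomyosin contraction at the apical side of its cells.

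Levels are given as log2 signal after quantile normalization of the 3 arrays, a step that gives every array the same distribution of signals. Each gene was read by its brightest kept probe, and the detected genes were sorted by their mean over the 3 embryos. The 25% of detected genes with the highest means, 2073 genes at 8.82 or above, were classed as strong. The lowest 25%, at 6.78 or below, were classed as weak, and the 50% between them as intermediate. Strong genes made up 11.7% of all named genes. The detected genes ran from 5.83 to 13.15. A further 2526 genes were detected on 1 or 2 arrays, with means of 5.27 to 7.51, and 6893 (38.9%) on 0 arrays, with means of 4.77 to 5.80. For these last genes the signal is only an upper bound. Signals of different probes also depend on the probe sequence, so a class describes how brightly a gene was seen and not how many transcripts it had. The 3 arrays detected 18592 to 19391 probes each, their raw median signals were 47.3 to 49.6, and every probe signal was the mean of at least 8 beads. With 1 array for each embryo, differences between embryos and differences made by dissection, amplification or hybridisation cannot be told apart, and the number of arrays limits the precision.

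Regulators known from lens development were read beside markers of the cells around the placode. The lists were chosen with earlier results of these data known, so their counts are no independent check of the tissue label. Of 27 measured lens regulators, 21 were detected, against 46.8% of all named genes, and 12 were strong, against 11.7%. Of 40 surface ectoderm genes, 28 were detected and 11 strong. Of 27 optic vesicle and neuroepithelium genes, 12 were detected, a share of 44.4%, close to that of all named genes. Of these, 6 were intermediate, 6 weak and 0 strong. The 6 intermediate ones are not named here, so the genes named next are from the dimmer part of the list. The retinal field genes Rax and Six6 were weak at 6.35 and 6.49, and Lhx2 was detected on 2 arrays. The retinal genes Lhx9, Vax2 and Fabp7 were not detected. Of 30 genes of head mesenchyme and neural crest, 16 were detected, a share of 53.3%, and 5 were strong, with a median of 7.91 over the detected ones. The strong ones were Tfap2b, the collagen gene Col5a1, the chemokine gene Cxcl12, Vim and Lgals1, at 8.91 to 9.55, and of these Tfap2b and Vim are also known in other tissues of the head. Markers of mesenchyme were thus present, also with Pdgfra, a growth factor receptor of mesenchyme, at 8.79, Prrx1, a homeobox gene of limb and head mesenchyme, at 8.11, and Twist1 at 6.87, while Col1a1, Foxc1, Sox10 and Foxd3 were not detected. How much RNA of neighbouring cells the samples held was not tested, and in such bulk samples fewer cells of a type and less RNA per cell cannot be told apart.

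Among the regulators, Pax6, the paired-domain factor at the head of the lens programme, was strong in every embryo. Its brightest probe read 10.51, 10.16 and 9.88 in embryos 1, 2 and 3 (mean 10.18 ± 0.32, SD, n = 3). Its other probes read 10.19, 9.58 and 9.66, and 8.77, 8.66 and 8.95. The 3 probes of Pax6 spanned 0.63, 0.60 and 0.29 log2 units over the embryos, and no embryo was the highest by every probe. Sox2, an HMG-box factor that works with Pax6 on lens enhancers, read 9.76, 9.27 and 8.48, a range of 1.28. Its dimmer probe, at 6.22, 6.37 and 6.62, put the embryos in the opposite order. Sox11, a related factor of many embryonic tissues, read 11.90, 11.82 and 12.09.

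The large Maf factor Maf, which activates crystallin genes in fibre cells, was already strong with 10.57, 9.99 and 9.84 in embryos 1, 2 and 3. Prox1, a homeobox factor needed for fibre elongation, was strong at 9.46, 9.28 and 8.78. Both were lowest in embryo 3, as was the small Maf factor Mafg at 9.27, 8.95 and 8.65. The homeobox factors Meis1 and Meis2, known to act on the Pax6 lens enhancer, averaged 9.55 ± 0.27 and 10.39 ± 0.12 (SD, n = 3). Mab21l1, a gene needed for lens growth, varied little, with 10.02, 9.97 and 9.95. Its relative Mab21l2 was weak and uneven at 7.41, 6.45 and 6.28. Tfap2a, an ectodermal AP-2 factor, read 9.70, 9.72 and 9.77 by the brightest of its 5 kept probes. Its other kept probes were less even, with ranges of 0.70 to 1.21. The cofactor Ldb1 and the chromatin remodeller Smarca4 were also strong, with means of 9.25 and 8.97.

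Six3, a homeobox factor that activates Pax6 in the presumptive lens ectoderm, was intermediate at 7.05, 7.29 and 7.94. Its second probe was detected in embryo 2 alone. The head homeobox genes Otx1 and Otx2, expressed in anterior ectoderm and brain, averaged 8.53 and 7.07, and both were highest in embryo 2. Zeb2, a zinc finger factor known to regulate Foxe3, read 7.65, 7.36 and 6.29, and each of its 3 kept probes was highest in embryo 1 and lowest in embryo 3. The corepressor Bcor at 8.68, the general factor Sp1 at 8.28 and the coactivator Ncoa6 at 7.55 were intermediate, and the heat shock factor Hsf2 was weak at 6.52.

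The other 6 measured regulators were not detected on any array, each by a single probe. They were Foxe3, a forkhead factor of the lens epithelium, at 5.64, 5.64 and 5.55, and Pitx3, Sox1, Hsf4, Gata3 and Pknox1, with means of 5.26 to 5.46. Sox1, Hsf4 and Pitx3 are known for their roles in the later lens, in fibre cells or in the closing vesicle. Sox3 and Pou2f1 were not analysed here. Of the 21 detected regulators, 15 had their lowest signal in embryo 3, against 37.3% of all detected genes, and 12 were ordered embryo 1, 2, 3 from high to low, against 21.7% of all detected genes. The 9 regulators with 2 or more kept probes gave a mixed check of that pattern. In 4 of them the second probe had the same embryo highest, and in 2 it had the opposite order.

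**Figure D1:**
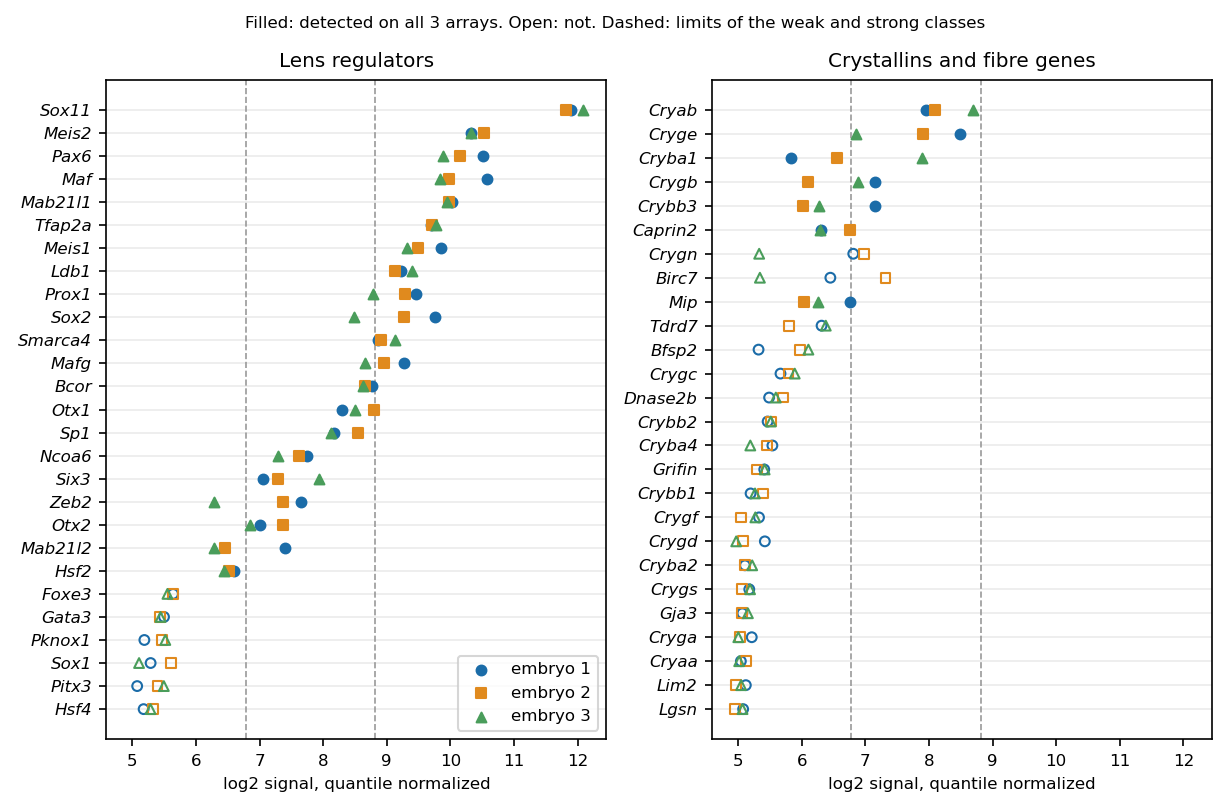
Log2 signal (x axis) of each lens regulator (left) and each crystallin or fibre gene (right) in the 3 wild type embryos, with a marker for each embryo. Filled markers are genes detected on all 3 arrays, and dashed lines mark the limits of the weak and strong classes at 6.78 and 8.82. Of the regulators 12 lie right of the strong limit by their means, and none of the crystallin and fibre genes does.

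Crystallins and genes of the fibre cell were mostly dim or not detected. Of 26 measured, 7 were detected on all 3 arrays (26.9%, against 46.8% of all named genes), 5 on 1 or 2 arrays and 14 on 0. Of these 14, 13 were read by a single probe. None of the 26 was strong. Cryab, the small heat shock protein alphaB-crystallin that many tissues use, read 7.96, 8.09 and 8.69 in embryos 1, 2 and 3. Its partner Cryaa, which is largely restricted to the lens, was not detected, at 5.04, 5.13 and 5.02. Among the beta-crystallins, Cryba1 was weak and uneven at 5.84, 6.55 and 7.89, and its second probe was not detected. Crybb3 read 7.16, 6.01 and 6.28, while Cryba2, Cryba4, Crybb1 and Crybb2 were not detected. By their brightest probes, embryo 3 was the highest for Cryba1 and embryo 1 for Crybb3. The second probe of Crybb3, detected on 1 array, read 5.62, 5.64 and 5.88, highest in embryo 3. Whether these dim beta-crystallins moved together thus depends on the probe.

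Among fibre genes, the water channel gene Mip was weak at 6.76, 6.03 and 6.26, and the RNA granule gene Caprin2 was weak at 6.31, 6.75 and 6.29. Bfsp2, a filament protein of fibre cells, and Tdrd7, an RNA granule protein, were each detected on 2 arrays, as were Birc7 and Crygn. The connexin gene Gja3, the membrane protein gene Lim2, the nuclease gene Dnase2b, and Lgsn and Grifin were not detected. Bfsp1 was not analysed here. At a detection limit of 0.01 the detected count of the list was 2, Cryab and Cryge, and at 2 or more arrays it was 11, so its dim members sat at the edge of detection.

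The gamma-crystallins are near copies that lie on chromosome 1 and are known for expression in differentiating fibres. Cryge read 8.49, 7.90 and 6.85 and Crygb 7.15, 6.10 and 6.88. Crygc was detected in 1 embryo, at 5.67, 5.79 and 5.89, and Cryga, Crygd, Crygf and the more distant Crygs were not detected. Because the copies are so alike, a probe named for a gene can also bind cDNA of its copies, so the values of single gamma-crystallins are uncertain. The 120 bases before each annotated start are shown because genes of this family with different detection share much of this sequence. They come from RefSeq on GRCm38.p6, read 5′ to 3′ on the gene's own strand, and capitals mark TATAA or TATATA on either strand between 45 and 10 bases before the start.
Crygb: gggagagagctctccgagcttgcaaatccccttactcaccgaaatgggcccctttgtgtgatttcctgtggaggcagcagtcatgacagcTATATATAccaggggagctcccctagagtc
Cryge: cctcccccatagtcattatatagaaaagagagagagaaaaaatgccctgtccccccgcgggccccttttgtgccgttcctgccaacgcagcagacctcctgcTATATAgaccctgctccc
Crygc: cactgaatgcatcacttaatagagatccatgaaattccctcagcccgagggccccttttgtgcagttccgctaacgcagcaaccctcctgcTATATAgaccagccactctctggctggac
Cryga: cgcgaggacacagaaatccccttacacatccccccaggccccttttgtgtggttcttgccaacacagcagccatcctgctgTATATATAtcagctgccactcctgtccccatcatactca
Crygd: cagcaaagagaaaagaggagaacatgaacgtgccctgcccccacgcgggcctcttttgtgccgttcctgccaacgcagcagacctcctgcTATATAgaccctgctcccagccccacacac
Crygf: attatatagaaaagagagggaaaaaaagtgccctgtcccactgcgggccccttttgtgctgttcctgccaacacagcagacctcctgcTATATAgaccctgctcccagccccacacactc

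The windows lie at chr1:65082291-65082410 for Crygb, chr1:65051164-65051283 for Cryge, chr1:65073533-65073652 for Crygc, chr1:65103364-65103483 for Cryga, chr1:65063441-65063560 for Crygd and chr1:65926402-65926521 for Crygf. Crygf is on the plus strand and the other 5 on the minus strand. The best ungapped alignment of the windows of Cryge and Crygf matched at 99 of 106 bases (93.4%), although Cryge was intermediate and Crygf not detected. Cryge and Crygd matched at 85 of 108 bases (78.7%). The window of Crygb, the other detected gene, matched no other at more than 43.6%. All 6 windows hold the marked letters, which begin 18 bases before the start in Cryge and 29 to 39 bases before it in the others. The detected and undetected genes of the cluster were thus not told apart by these letters.

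Promoters of crystallins and of detected genes differed in composition. Of 15 crystallin genes with a promoter in the table, 12 (80.0%) held TATAA or TATATA on either strand in that interval, against 5.96% of all 27025 promoters there. TGCTGAC, the start of a Maf recognition element, stood on either strand of 5 of the 15 (33.3%) in the 300 bases around the start, against 4.58% of all. For comparison, the same 120 bases of Sox2, a strong gene, are shown with no marked letters, at chr3:34649875-34649994 on the plus strand.
Sox2: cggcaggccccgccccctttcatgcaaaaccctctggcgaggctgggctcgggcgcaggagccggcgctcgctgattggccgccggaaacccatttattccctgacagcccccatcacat

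The median ratio of observed to expected CpG in the 300 bases was 0.83 for strong genes, 0.80 for intermediate, 0.72 for weak, 0.60 for partly detected and 0.28 for undetected genes. The 25 crystallin and fibre genes with a promoter stood at 0.24 and the 22 lens regulators at 0.72. TATAA or TATATA occurred in 3.60% of promoters of strong genes and in 10.6% of those of undetected genes. A promoter was found for 14227 of the 17711 genes, and these are shares of matching letters, not binding sites.

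Enzymes that serve as crystallins in some animals were all detected, 8 of 8, against 46.8% of all named genes. Gapdh averaged 11.22 ± 0.50, Ldhb 9.40 ± 0.29, Asl, the gene of the enzyme related to duck delta-crystallin, 9.18 ± 0.15 and Aldh1a1 9.08 ± 0.11 (SD, n = 3). These are enzymes of general metabolism. Gapdh read 10.73, 11.21 and 11.73, lowest in embryo 1. Cryz, related to guinea pig zeta-crystallin, was weak and the most uneven of the 8 at 5.85, 6.50 and 7.61.

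The placode had the markers of an early, simple ectoderm. Epcam, an adhesion protein of epithelia, read 9.93, 9.91 and 9.76 in embryos 1, 2 and 3. E-cadherin, Cdh1, read 9.77, 9.26 and 8.85, highest in embryo 1 and lowest in embryo 3. The keratin pair of simple epithelia was strong, with Krt18 at 9.75 ± 0.10 and Krt8 at 9.09 ± 0.19 (SD, n = 3). The pair of stratified epidermis was weak, with Krt5 at 6.71 and Krt14 at 6.19, and Krt15 was not detected. The ectodermal factor Trp63 stood at the limit of the strong class with 8.89, 9.07 and 8.50. The protease inhibitors Spint1 and Spint2, the tight junction gene Lsr and the splicing factor Esrp1 were strong, with means of 10.34, 10.02, 10.05 and 9.16.

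All 3 detected AP-2 genes were strong, with Tfap2a at 9.73, Tfap2b at 9.55 and Tfap2c at 9.40. The epithelial factors Grhl2 and Ovol2 averaged 8.70 and 7.13, and Grhl1 was not detected. Of the 28 detected surface ectoderm genes, 11 were highest in embryo 1, 10 in embryo 2 and 7 in embryo 3. Over all detected genes these shares were 38.4%, 28.8% and 32.8%. The lowest value was in embryo 3 for 17 of the 28, against 37.3% of all detected genes.

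Genes of the preplacodal region and of other placodes were detected in 17 of 29 cases, a share of 58.6% against 46.8% of all named genes. The strong ones were Eya1 at 10.81, 11.25 and 11.18, a phosphatase and transcriptional coactivator, Dlx3 at 10.89, 11.03 and 11.09, an ectodermal homeobox factor, and Dmrta2 at 10.45, 10.53 and 10.56. Eya3 and Sox9, a factor of otic placode and neural crest, were also strong, at 8.87 and 10.27. The pituitary placode genes Lhx3 and Pitx1 and the otic gene Pax8 were not detected, and Hesx1 was detected on 1 array. Tbx3, Foxi2, Irx3 and Pax2 were among the 7 weak ones. Of the 4 Eya genes, Eya1 and Eya3 were strong, Eya4 was weak at 6.38, and Eya2 was not detected by either of its 2 probes.

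FGF signalling was represented by a receptor and its feedback genes more than by genes of the Fgf family. The receptor Fgfr2, which is required in the lens ectoderm, was strong at 10.66, 10.54 and 10.68 in embryos 1, 2 and 3. Fgfr1 was intermediate at 7.20, 8.10 and 7.56, Fgfr3 was detected on 1 array and Fgfr4 on 0. Of 22 measured genes named Fgf, which are not all secreted ligands, 5 were detected (22.7%), none of them strong. They were Fgf15 at 7.64, Fgf13 at 7.17, Fgf10 at 6.62, Fgf18 at 6.44 and Fgf9 at 6.24. Of 18 targets and feedback regulators of FGF and ERK, 15 were detected and 6 were strong, against 46.8% and 11.7% of all named genes. They included Ccnd1, the gene of cyclin D1, at 11.87, 11.83 and 11.82, the ERK phosphatase gene Dusp6 at 8.93, 9.38 and 8.81, and the inhibitor Spred2 at 9.59, 10.01 and 10.06. Etv5 and Etv1, ETS factors that FGF induces, averaged 7.84 and 7.69, and their relative Etv4 was not detected. Spry2 was less even at 7.97, 7.30 and 6.75.

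BMP signals are needed for lens induction. Of 10 BMP ligands 2 were detected, Bmp4 at 8.04, 8.75 and 8.53, a ligand known from the optic vesicle, and Bmp7 at 6.73, 7.69 and 7.52, which is needed in the ectoderm. Both were lowest in embryo 1. Of 9 BMP and activin receptors 6 were detected (66.7%). The share was 20% for the BMP ligands and 46.8% for all named genes. The BMP receptor Bmpr1a was strong at 8.83, Bmpr2 and Acvr1 were weak at 6.53 and 6.26, and Bmpr1b was detected on 1 array. Acvr2b and the activin receptor Acvr1b were strong at 10.15 and 9.10. The BMP signal transducer Smad1 read 8.99, 9.09 and 8.94, and the shared Smad4 averaged 10.56. Smad3, which serves activin and TGF-beta, averaged 10.75. The BMP targets Id2 and Id3, inhibitors of bHLH factors, read 9.82, 9.67 and 10.12, and 8.89, 8.88 and 8.88. Id1 was intermediate at 8.58 and Id4 weak at 6.26. The antagonists Nog, Chrd and Bambi were not detected, and Fst and Grem1 were each detected on 2 arrays.

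The Wnt pathway is known to hold back lens fate in the head ectoderm. Its extracellular inhibitors Sfrp2, Dkk3 and Sfrp1 were strong. Sfrp2 read 12.15, 11.73 and 11.64, Dkk3 10.29, 10.43 and 10.06, and Sfrp1 8.86, 8.85 and 9.32. Frzb, at 7.73, 8.12 and 8.15, and Dkk1, with a mean of 7.30, were intermediate, whereas Wif1, Dkk2, Dkk4 and Sfrp4 were not detected. The pathway targets Axin2 and Lef1 were intermediate at 7.81 and 7.19, and Notum was not detected. Of 18 Wnt ligands 7 were detected (38.9%, against 46.8% of all named genes) and 0 were strong. Wnt5a was the brightest at 8.17, 9.04 and 8.89. Of 10 Frizzled receptors 8 were detected, with Fzd5, Fzd7, Fzd3 and Fzd10 at 8.90, 8.56, 8.43 and 8.30. Beta-catenin, Ctnnb1, serves both adhesion and this pathway and read 12.18, 12.36 and 12.43.

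Notch receptors and transducers were present without detected Delta ligands. Jag1, a Notch ligand known to act in the lens, read 8.38, 8.18 and 7.86, while Jag2, Dll1, Dll3 and Dll4 were not detected. Notch1 and Notch2 were weak at 6.40 and 6.24, and the nuclear partner Rbpj was intermediate at 8.02. The targets Hes1, Hes5 and Heyl were not detected, and Hey1 was intermediate and uneven at 7.22, 6.69 and 7.81. Of the 9 Hes and Hey genes measured, 6 were undetected, a share of 66.7% against 38.9% of all named genes. Hes6, which counters Hes1 rather than acting as its copy, was strong at 9.68.

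Of 15 retinoic acid genes 9 were detected (60.0%, against 46.8% of all named genes), 4 of them strong, and 4 were detected on 0 arrays. Of the enzymes that make retinoic acid, Aldh1a3 read 10.53, 10.08 and 9.99 and Aldh1a1 averaged 9.08, and Aldh1a2 was not detected. Cyp26b1, which degrades retinoic acid, was strong at 9.61, 9.58 and 9.83. Of the Hedgehog genes, Shh, Ihh and Dhh were not detected. The receptors and transducers of the pathway were, with Gli3 at 9.55, Cdon at 9.24, Ptch1 at 8.81 and Gas1 at 8.63. Of the guidance families, 16 of 19 semaphorins and 6 of 7 ephrins were detected, Efna5 at 10.13 being strong, but 5 of 13 Eph receptors and 3 of 10 plexins and neuropilins.

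Of 35 genes of apical constriction and polarity, 27 were detected (77.1%, against 46.8% of all named genes). Of these 11 were strong, 14 intermediate and 2 weak. Actb, the gene of cytoplasmic actin, read 13.03, 13.21 and 13.21 and was the brightest of all detected genes. Non-muscle myosin heavy chain Myh9 read 11.19, 11.44 and 11.35, and its light chain Myl12b averaged 10.15. The actin regulators Vasp and Enah and the kinase Rock1 averaged 10.69, 10.52 and 9.71. Planar polarity was represented by Vangl2 at 11.13, 11.39 and 11.39 and basolateral polarity by Llgl1 at 11.83. Shroom3, the scaffold known to be required for placode bending, was weak by its single probe at 6.18, 6.63 and 6.51. The apical polarity genes Crb2 and Pard6b were not detected.

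Junction and matrix families differed in how many members were detected, against 46.8% of all named genes. Of 16 connexins 4 were detected (25%): Gja1, connexin 43 of the early lens epithelium, at 12.21, 12.18 and 12.20, Gjc1 at 10.18, and Gjb2 and Gjb6 weakly. Of 22 cadherins 5 were detected (22.7%), with N-cadherin Cdh2, which later lens cells use, at 6.84, 7.24 and 7.20. Of 20 claudins 8 were detected (40.0%), with Cldn12 at 9.25 and Cldn7 at 7.89. All 10 syndecans and glypicans, the heparan sulphate carriers that FGF needs, were detected, with Gpc3, Gpc1, Sdc3 and Gpc2 strong. Of 39 collagens 14 were detected (35.9%), among them the basement membrane chains Col4a2 and Col4a1 at 9.75 and 8.65, and Col2a1 at 9.15. Of 24 integrins 9 were detected (37.5%), with Itgb1 strong at 10.67, 10.60 and 10.59. Of 10 laminins 5 were detected (50%), with Lamb1 intermediate at 8.56.

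**Figure D2:**
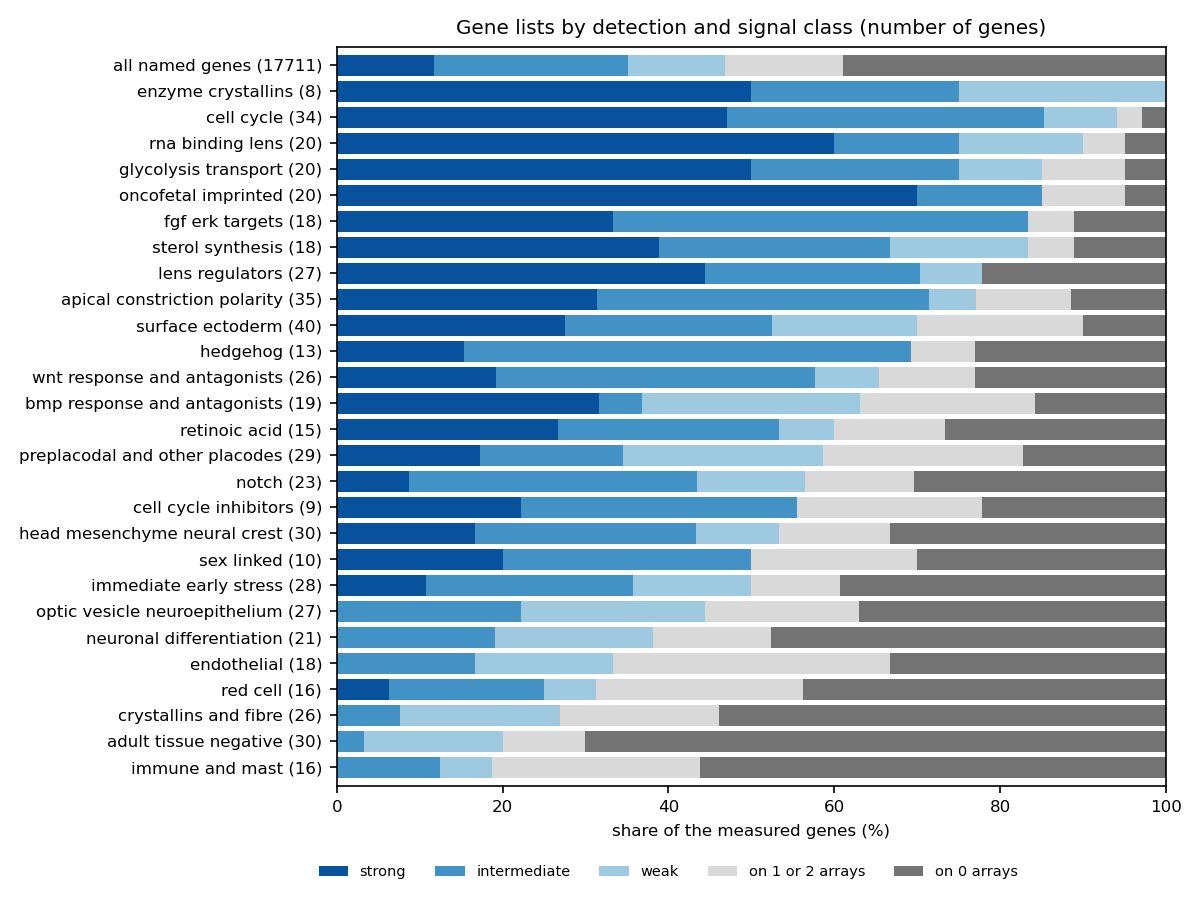
Each bar splits the measured genes of a list (number in brackets) by signal class, in percent of the list, with all 17711 named genes on top. Strong genes make up 70.0% of the oncofetal and imprinted list, 11.7% of all named genes and 0% of the crystallin and fibre list.

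Many genes of the proliferation, growth and metabolism lists were strong. Of all named genes, 46.8% were detected and 11.7% strong. Of 34 cell cycle genes 32 were detected and 16 strong, among them the replication helicase genes Mcm4, Mcm5 and Mcm6 at 11.74, 11.31 and 11.04 and the mitotic kinase gene Plk1 at 11.58. The inhibitor Cdkn1c, which is imprinted, was strong at 10.41, 10.35 and 10.30, whereas Cdkn2a and Cdkn2b were not detected. Of 20 oncofetal and imprinted genes 17 were detected and 14 strong. Grb10 read 12.00, 11.98 and 11.98 and Igf2, a fetal growth factor, 10.65, 10.86 and 11.07. The let-7 antagonists Lin28a and Lin28b averaged 9.99 and 9.16. Lin28a was highest in embryo 3, at 9.59, 9.73 and 10.65. Of 20 glycolysis and transport genes 17 were detected and 10 strong, with Hk2 at 11.04 and the glucose transporter Slc2a1 at 10.56. Of 18 sterol synthesis genes 15 were detected, with Hmgcs1 at 11.85, 11.54 and 11.48.

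Most genes of RNA handling and protein turnover were detected, against 46.8% of all named genes. Of 20 genes of RNA binding proteins known or studied in the lens, 18 were detected and 12 strong. Embryo 3 was the lowest for 14 of the 18, against 37.3% of all detected genes. All 19 Hnrnp genes were detected, 15 of them strong, and so were 8 of 9 Srsf splicing factors and 36 of 39 proteasome genes. Also detected were 74 of 84 genes of oxidative phosphorylation and 45 of 52 cytoplasmic ribosomal protein genes. The 20 named genes with the highest signal, ribosomal proteins left out, ran from 12.11 to 13.15. Besides Actb they were the tubulins Tuba1a and Tubb5, Ctnnb1, Gja1, the chromatin proteins Hmgn1, Hmgb1 and Ptma, the demethylase Kdm7a, the translation factors Eif5a and Eef1a1, Calm2, Marcks, Dpysl2, Snx10, Lypla2, Vdac1, Mgarp, Sae1 and Midn. Of these, Dpysl2, a regulator of microtubules, had the largest range, with 12.06, 12.58 and 13.08.

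Of 28 immediate early and stress genes 14 were detected (50%, against 46.8% of all named genes), 3 of them strong, and 11 were detected on 0 arrays. The undetected ones included the early response genes Fos, Fosb, Junb, Ier2, Atf3 and Nr4a1 and the heat shock gene Hspa1a. Egr1 was intermediate at 6.19, 7.09 and 7.18, Dusp1 at 8.61, and Ddit4 was strong at 11.08, 11.12 and 11.33.

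Several families gave almost no signal. Of 37 Hox genes 3 were detected (8.11%, against 46.8% of all named genes), Hoxb4 at 6.93 and Hoxd9 and Hoxc6 weakly, and 28 were on 0 arrays. Hox genes mark the trunk and hindbrain and are known to be off in the anterior head. None of 35 interleukins, none of 8 Lhx genes and neither of the measured Pitx genes, Pitx1 and Pitx3, was detected on all 3 arrays. Among 41 forkhead genes 13 were detected (31.7%). The strong ones, Foxk1, Foxk2, Foxj3 and Foxm1, are widely expressed. Of 18 Sox genes 6 were detected, with Sox12 strong at 10.95 beside Sox11, Sox9 and Sox2. Of 8 Pax genes Pax6 was strong, Pax2 and Pax9 were weak and Pax4, Pax5, Pax7 and Pax8 were on 0 arrays. Keratins were detected in 8 of 43 cases.

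Olfactory receptors, known from the sensory neurons of the later nose, give a scale for the detection rule. Of 1003 measured, 44 (4.39%) were detected on all 3 arrays and 0 were strong. Of 151 vomeronasal receptors, 4 were detected (2.65%). Of 30 genes of adult organs, such as albumin and insulin, 6 were detected. These were Pomc at 8.45 by 1 of its 2 probes, and Mbp, Krt10, Apoa1, Opn1sw and Myh4 weakly. Of the 44 detected olfactory receptors 34 were weak and 10 intermediate.

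**Figure D3:**
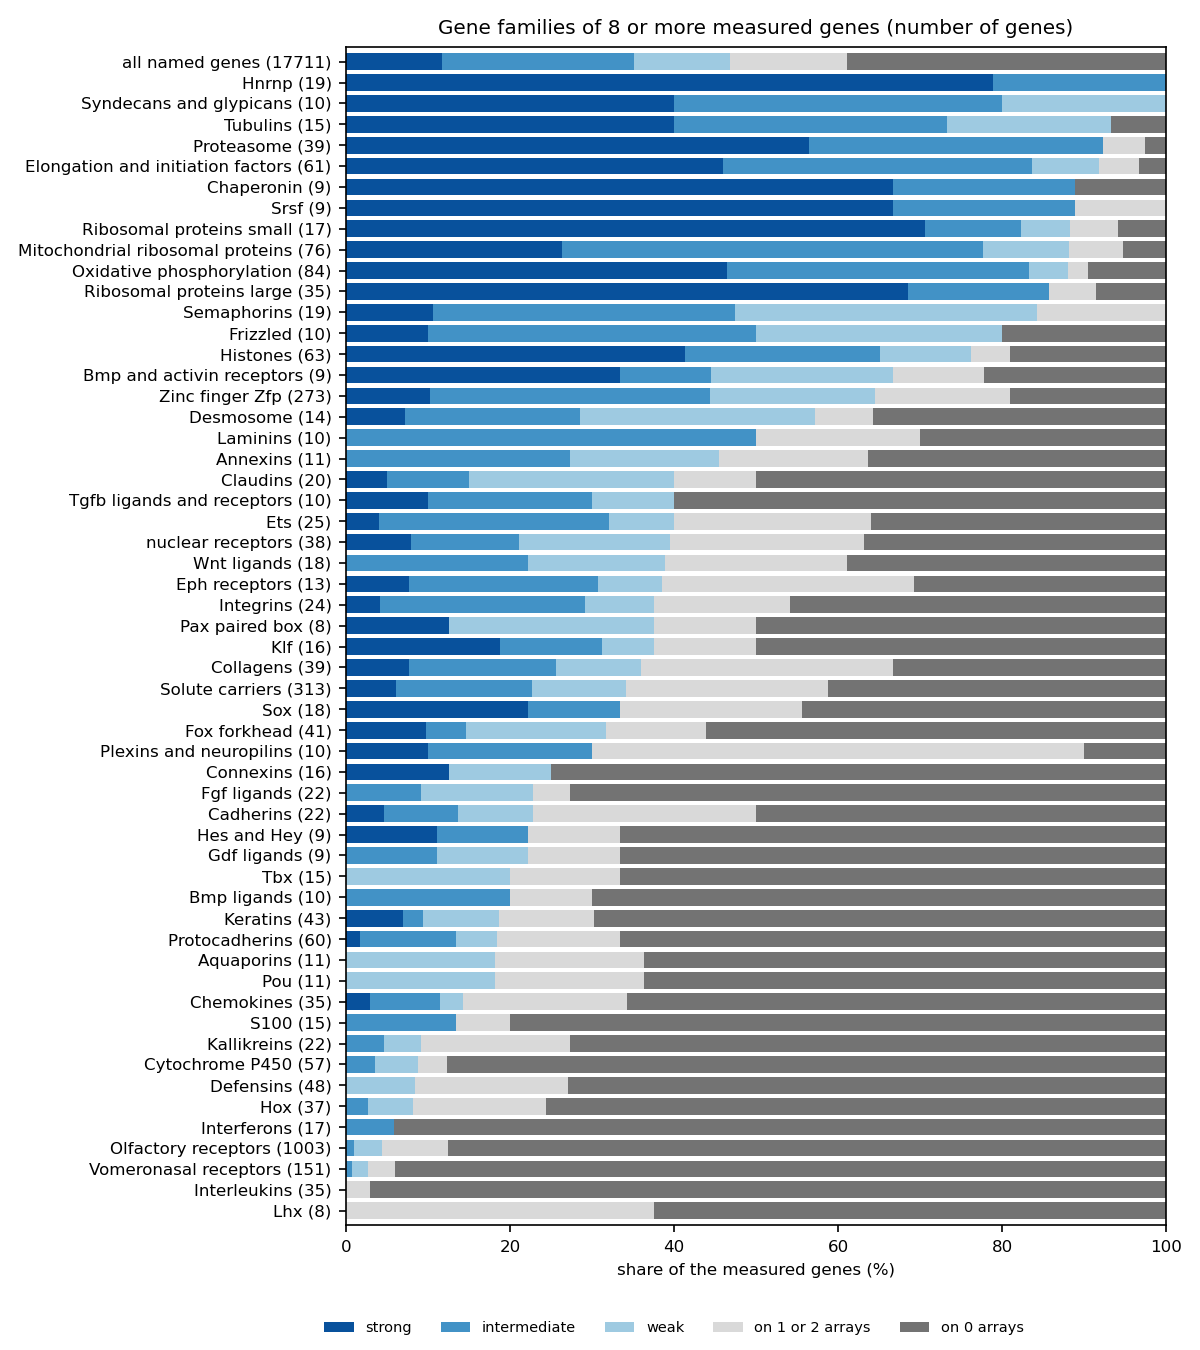
Each bar splits the measured genes of a family (number in brackets, 8 or more) by signal class, in percent of the family, with all named genes on top. All 19 Hnrnp genes were detected, against 3 of 37 Hox genes and 0 of 35 interleukins.

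Neuronal, endothelial and immune lists held no strong gene, against 11.7% of all named genes. Of 21 genes of neuronal differentiation 8 were detected (38.1%, against 46.8% of all named genes) and 0 strong. Elavl4, an RNA binding protein of neurons, read 7.55, 7.66 and 7.09, and Gap43, a growth cone protein, 7.55, 7.62 and 6.09, while Neurod1, Neurog1, Dcx and Pou4f1 were not detected. Of the 8 detected, 7 were lowest in embryo 3, against 37.3% of all detected genes. Of 18 endothelial genes 6 were detected (33.3%), with Kdr, a VEGF receptor, at 7.46, 7.41 and 7.50, while Cdh5, Tek and Tie1 were not. Of 16 immune and mast cell genes 3 were detected (18.75%). Cma1, the gene of a mast cell protease, was the brightest at 8.24, 7.80 and 8.33, although the mast cell genes Cpa3, Tpsb2 and Mcpt4 and the pan-leukocyte gene Ptprc were not detected. What Cma1's single probe measured was not tested.

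For most genes the signals of the 3 embryos lay close together. The median SD of a detected gene over the 3 embryos was 0.228 log2 units, and 90% of genes, between the 5th and 95th percentile, had an SD of 0.0528 to 0.610. The median ratio of the highest to the lowest embryo was 1.35. A range over 1 log2 unit was found for 738 of 8292 genes (8.90%) and over 2 for 24. Pearson correlations between arrays across kept probes were 0.930 to 0.949. These are correlations across probes, which are not independent replicates. Strong genes had a median SD of 0.165, intermediate genes 0.263 and weak genes 0.230. Over all kept probes the median SD of 0.232 exceeded the median bead error, the standard error of a probe's own beads on the log2 scale, of 0.0642. For 76.0% of kept probes the SD over embryos was more than 2 times the bead error, which covers the beads of an array only.

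The most stable strong genes were Poglut2, at 9.23 in every embryo, Ccdc7a, Prelid3b, Ephx2, Id3, Kmt2e, Zbtb7a, Tfdp1, Srrm1 and Cdv3, all with an SD under 0.01. Quantile normalization gives equal values to probes of equal rank, so such small SDs mean nearly the same rank on each array. Among regulators read by their brightest kept probe, Mab21l1 and Tfap2a had the smallest SDs, both 0.04, and Zeb2 the largest, 0.72. The other kept probes of Tfap2a had SDs of 0.35 to 0.64, and those of Zeb2 0.36 and 0.37. The second probe of Mab21l1 had 0.14. The median SD of detected lens regulators was 0.25 and that of detected crystallin and fibre genes 0.55, against 0.23 for all detected genes.

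By the brightest kept probe, the largest range belonged to Hbb-bh1, an embryonic beta-like globin, with 9.95, 9.26 and 6.96. The second probe of Hbb-bh1 was not detected on any array, at 5.49, 5.52 and 5.38. The next largest ranges were those of Slc25a17, a peroxisomal carrier, with 8.63, 8.38 and 5.91, and Tmem14c, a mitochondrial protein of haem synthesis, with 8.73, 7.64 and 6.05. Both were lowest in embryo 3, like the globin. Abhd12, a lipid hydrolase, had the opposite order, with 5.99, 6.99 and 8.62. The other genes among the 15 largest ranges were Miat, Pcgf1, Rbm28, Tbcel, Slc25a22, Exoc4, Copg1, Mpv17, Osmr, Cxcr4 and Sorbs3, with ranges of 2.13 to 2.47. Of the 15, 6 were lowest in embryo 3, 5 in embryo 1 and 4 in embryo 2. Over all detected genes the shares lowest in these embryos were 37.3%, 31.5% and 31.2%. A single kept probe stood behind 13 of the 15, against 5856 of all 8292 genes. Like the second probe of Hbb-bh1, further probes of Abhd12, Osmr and Sorbs3 were not detected on any array. Where more probes were kept they did not repeat the range: Exoc4 had 2.27 by its brightest probe and 0.40 or less by its 3 others, and Copg1 had 2.26 and 0.16. Cxcr4, the receptor of the chemokine Cxcl12, read 6.44, 8.60 and 7.14.

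Different probes of a gene often gave different embryo orders. For 2436 genes with 2 or more kept probes, the 2 brightest probes had the same embryo highest in 914 (37.5%), where unrelated orders would give 33.3%. The whole order was the same in 21.8%, where unrelated orders would give 16.7%. For the 215 genes with a range of 1 or more the shares were 43.3% and 30.2%. Differences between embryos in a single gene, such as those of Sox2 or Cryba1 above, therefore depend on the probe that was read.

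Most clustered histone genes were shifted together. Transcripts of the replication-dependent histone clusters are made in S phase and mostly lack a poly(A) tail. By their symbols alone, 43 detected genes were assigned to these clusters. They had their lowest signal in embryo 1 in 36 cases and their highest in embryo 3 in 35. Over all detected genes these shares were 31.5% and 32.8%. The mean deviation of the 43 genes from the gene mean was -0.45 in embryo 1, 0.09 in embryo 2 and 0.36 in embryo 3. H2bc22 read 9.56, 10.50 and 11.28, H4c4 9.52, 10.73 and 10.94, and H2ac12 8.02, 9.40 and 9.98. Of the 21 histone genes with 2 or more kept probes, 18 had the same order by both probes, against 21.8% of all such genes. Histone genes within a class are near copies, so their probes may share targets and are not independent. The 5 other detected histone genes deviated by -0.20, 0.17 and 0.03 on average in embryos 1, 2 and 3. Of these 5, 3 were highest in embryo 1, while 2 were lowest in embryo 1 and 3 in embryo 3. H3f3b, a replication-independent histone gene with a poly(A) tail, fell from embryo 1 to embryo 3 at 11.51, 11.35 and 11.19.

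The 32 detected cell cycle genes, a list that mixes genes of replication and of mitosis, deviated by -0.09, 0.05 and 0.04 on average. Some replication genes were also lowest in embryo 1, such as Mcm2, Mcm4 and Mcm7. Mcm4 read 11.46, 11.85 and 11.92 and Mcm7 10.38, 10.66 and 10.72, whereas the mitotic kinase gene Plk1 read 11.76, 11.70 and 11.28. Mcm2 read 9.51, 10.57 and 10.02, Pcna, the replication clamp gene, 8.70, 8.60 and 8.78, and Rrm2, a subunit of ribonucleotide reductase, 9.99, 10.10 and 10.31. Ribosomal proteins of the large subunit deviated by -0.05, -0.02 and 0.07. The detected lens regulators deviated by 0.14, 0.02 and -0.16, and neuronal genes by 0.16, 0.11 and -0.28, highest in embryo 1 and lowest in embryo 3. Whether stage, dissection or cDNA amplification differed between these embryos was not tested.

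**Figure D4:**
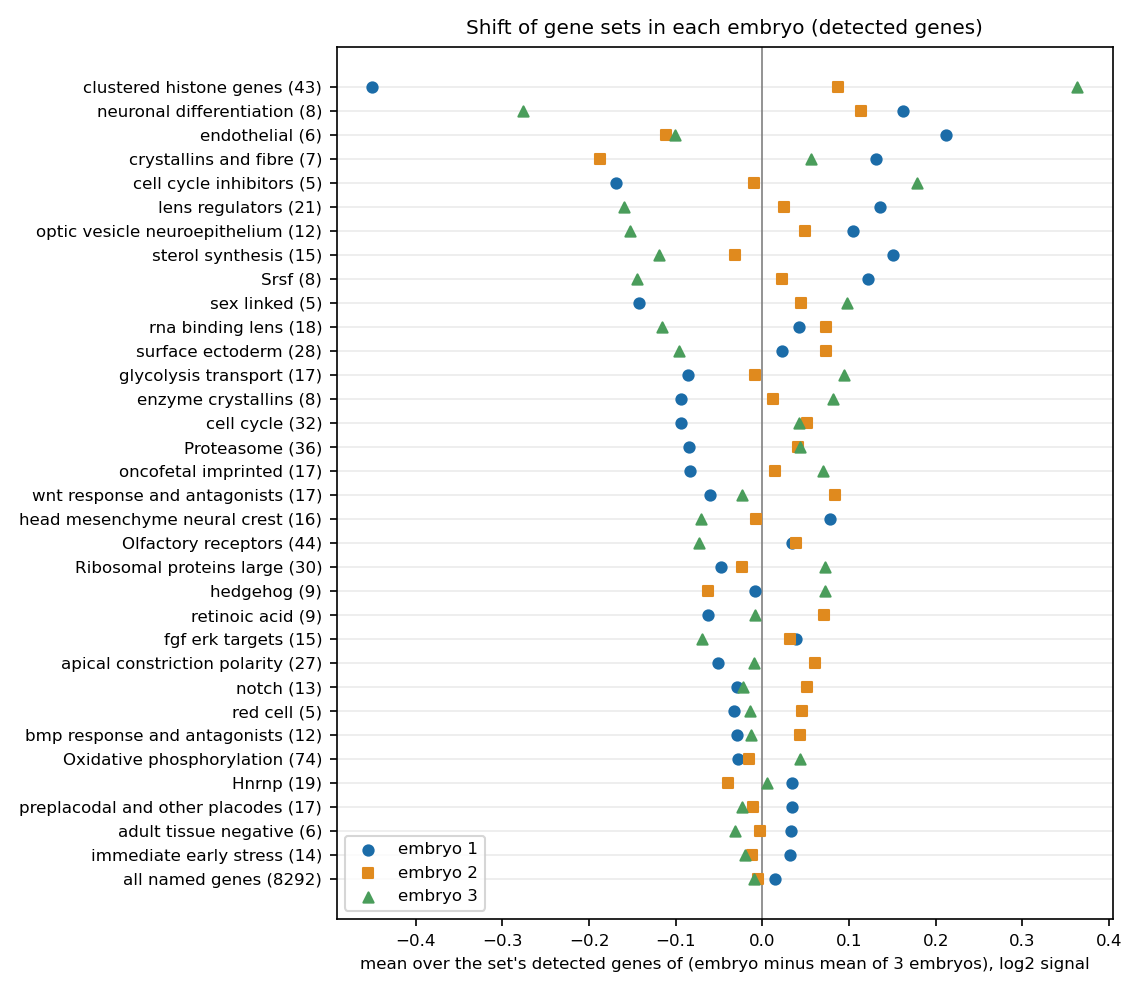
Mean deviation (x axis, log2 units) of the detected genes of each set from their own means over the 3 embryos, with a marker for each embryo and the number of detected genes in brackets. Of the sets shown, the 43 clustered histone genes lie farthest from 0, at -0.45 in embryo 1 and 0.36 in embryo 3, and all 8292 genes lie near 0.

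Red cell genes varied between embryos, and several but not all of them fell from embryo 1 to embryo 3. The 5 red cell genes detected on all 3 arrays, of 16 measured, had a median SD of 1.05, against 0.23 for all detected genes. That median is the SD of the brightest Hbb-bs probe, and the other kept probes of this gene had SDs of 0.15 and 0.20. The adult globin gene Hbb-bt was even, at 8.14, 8.27 and 8.22. The embryonic globin gene Hbb-bh1, by the 1 detected of its 2 probes, was highest in embryo 1 and lowest in embryo 3. So were Hba-x, also an embryonic globin chain, and Hba-a1, an adult one. Slc4a1, at 6.48, 6.24 and 5.57, and Hbb-b2, at 5.99, 5.88 and 5.75, had the same order and were detected on 2 arrays each. The order embryo 1, 2, 3 from high to low held for 21.7% of all detected genes. Hba-x read 7.73, 6.98 and 5.46 and Hba-a1 8.06, 7.48 and 5.75, neither being detected in embryo 3. The brightest probe of the adult chain gene Hbb-bs read 8.21, 10.00 and 10.04, and its other kept probes differed between embryos by 0.30 and 0.36. The haem enzyme gene Alas2 read 6.41, 5.86 and 7.91. The early blood factor Tal1 changed little, at 8.17, 7.89 and 7.84, and the red cell factors Klf1 and Gata1 were not detected. Globin genes within a class are near copies, so probes can share signal. How much blood each sample held was not tested.

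**Figure D5:**
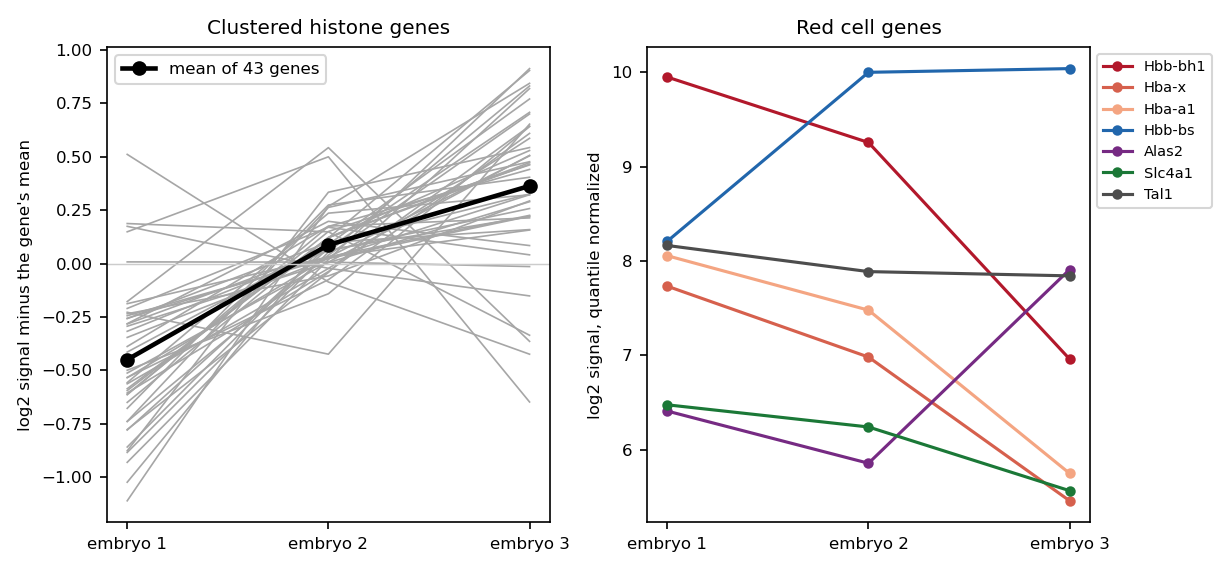
Left, log2 signal of each of the 43 detected clustered histone genes minus its mean over the embryos (grey lines join the values of a gene), with their mean in black. Right, log2 signal of 7 red cell genes; Hba-x, Hba-a1 and Slc4a1 were not detected in embryo 3. The histone mean is lowest in embryo 1, whereas Hbb-bh1 is highest there.

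Sex-linked genes were read in each embryo. Xist, the RNA of the inactive X chromosome, was strong at 9.34, 9.58 and 9.54. The Y-linked genes Kdm5d, Zfy1 and Sry were not detected, Eif2s3y was detected on 2 arrays with values of 5.70 to 5.99, and Uty, at 5.29, 7.01 and 5.35, in embryo 2 alone and by 1 of its 3 probes.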

How the data were processed

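RNA of the microdissected lens placode of 3 wild type embryos was measured on 1 Illumina array each. The deposited tables give, per the file headers, an average signal intensity for each probe on a linear scale, the count of beads behind it, the standard error of those beads and a detection p-value. The submitters' processing notes name GenomeStudio, but not how background and scale were set for this table. Intensities were quantile normalized over the 3 arrays with limma 3.58.1 in R 4.3.3 and taken to log2, and tables were made with pandas 2.3.3. The deposited value table of the series, background-subtracted linear intensities made by the authors, was used as an alternative.

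Probes were named from the platform annotation: 29976 had 1 gene symbol, 10 had several and 16646 had none. Symbols were updated through RefSeq GRCm38.p6, which held the Entrez number of 29921 probes, and 3833 of the kept probes have no gene name here. A gene was read by its brightest kept probe, or, with no kept probe, by its brightest one, and its detection count is that of the probe detected on most arrays. No test was made, and values are means with SD over 3 embryos. The members and lists were chosen with earlier results of these data known. Named were the 20 brightest genes, the lens regulators and crystallins, the brightest or most variable genes of other lists and families with some chosen for their known role, the 15 largest ranges and the 10 smallest SDs among strong genes. Alternatives were the detection limit, the arrays required, the normalization, neqc background correction, the value table, the choice of probe, the filter on dim probes and leaving out each embryo. The scripts were tested on simulated data. The number of arrays limits the precision.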

Additional observations from a re-analysis of the deposited data

How the results depend on the processing

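None of the results reversed under the alternatives run, and each main count or spread stayed within 1.5 times its value. The count of detected genes was 8292, against 5913 at a detection limit of 0.01, 9383 at 2 or more arrays, and 8618 to 8772 on the other 2 arrays when an embryo was left out. Of the 2073 strong genes, 2068 to 2073 stayed strong under the other normalizations, neqc and the authors' table. This count was 1635 with the mean of a gene's kept probes, and 2046 to 2051 when an embryo was left out. The median SD of 0.228 was 0.224 to 0.233 under other normalizations, 0.264 with neqc and 0.305 in the authors' table, and 0.170 to 0.204 when an embryo was left out.

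The results that moved more were of dim genes or single probes. Detected crystallin and fibre genes numbered 7, against 2 at the limit of 0.01 and 11 at 2 or more arrays, and olfactory receptors 44, against 12 and 70. The embryo 1 minus embryo 3 difference of Pax6 was 0.63 log2 units, against 0.33 with the mean of its kept probes, and that of Sox2 1.28, against 0.44. Lens regulators lowest in embryo 3 numbered 14 to 16 of 21 under every alternative that kept embryo 3. The causes of these shifts were not tested.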

Other observations

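Some bright probes carry no gene name here. Of the 3833 kept probes without a name, 823 (21.5%) were among the brightest 25% of kept probes, against 26.2% of the 11743 kept probes with a name. Their median SD over the 3 embryos was 0.224, against 0.234 for named probes.

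A few small families, named after the values of all families were seen, had the same lowest embryo in all or nearly all detected members. All 4 detected Dlx genes were lowest in embryo 1, as were all 3 detected Eya genes, whereas all 3 detected large and small Maf genes were lowest in embryo 3. Of 8 detected Srsf splicing factors, 7 were lowest in embryo 3. Over all detected genes 31.5% were lowest in embryo 1 and 37.3% in embryo 3. These are descriptions of 3 embryos, and no test was made.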
